A study of Mus musculus with 6 samples.

Results

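The 37 genes described here are named genes of macrophages, antigen presentation, neutrophils and T cells, together with cytokines and interferon-induced genes, chosen by name as genes of testicular macrophages and other immune cells and found among the 55536 genes of the count table by their Ensembl identifiers. All 37 were in the table, and 28 had enough counts to be tested. All 3 genotypes have the FVB/NJ background: WT; P2KO, in which a gene trap with LacZ and Neo replaces part of exon 1 of Padi2; and DKO, in which a deletion of 4 nucleotides in exon 1 of Padi4 was made by CRISPR in P2KO zygotes and bred to homozygosity from 1 founder line. The study took whole testes at 4 months of age, from 2 mice per genotype, for sequencing of poly(A) RNA.

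Macrophages are the most numerous immune cells of the testis and lie in the interstitium beside Leydig cells and on the outside of the tubules near the spermatogonia. Those of the interstitium carry the receptor for colony-stimulating factor 1, on which their survival depends, while those on the tubules are known for MHC class II. The testis is an immune-privileged organ, in which T cells are few and neutrophils are rare without inflammation.

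The targeted genes were read first. Padi2 counts were 47 and 64 in WT, 100 and 55 in P2KO, and 59 and 83 in DKO, so they were not lower in the knockout libraries and give no check of the labels. These counts cover the whole gene, of which the gene trap replaces only part of exon 1. The study found no Padi2 transcript by RT-PCR of salivary gland, and no PAD2 protein in spleen, in P2KO and DKO mice. Padi4 counts were 20 and 43 in WT, 11 and 10 in P2KO, and 4 in both DKO libraries, and the gene fell in DKO against WT (log2 fold change -2.94, edgeR adjusted p = 2.78e-04), where DESeq2 on all 6 libraries gave it no adjusted p. In P2KO, where Padi4 was not targeted, its log2 fold change against WT was -1.63 (edgeR adjusted p = 0.0959), and in DKO against P2KO it was -1.31 (edgeR adjusted p = 0.404).

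Levels of the genes differed widely. They are given as RPKM (reads on a gene scaled by the length of its merged exons and by the scaled library size), a scale that allows for the length of a gene. Aif1, which encodes the cytoplasmic protein IBA1 and is known to be expressed in spermatids as well as in macrophages, had by far the highest mean level over the 6 libraries, at 204 RPKM. The next were Fcgr3 at 22.8, H2-D1 at 21.1, H2-K1 at 16.4, B2m at 14.1 and Lyz2 at 11.1 RPKM. With the longest protein-coding transcript as the length, an alternative chosen after seeing the data, the order was H2-K1 (29.8), Fcgr3 (29.3) and H2-D1 (25.9) after Aif1 (357). As a ratio Ptprc moved most, from 0.0412 to 0.149 RPKM (a ratio of 3.61), and in RPKM Aif1 moved most. Of the 28 tested genes, these 6 were above 10 RPKM, 10 lay between 1 and 10 RPKM, and 12 were under 1 RPKM. Among the genes that define macrophages, Mrc1 had a mean level of 5.21 RPKM, Cx3cr1 of 1.71, Cd68 of 1.59, Csf1r of 1.54, Adgre1 of 0.955, Cd163 of 0.0935 and Ptprc of 0.0412 RPKM. These markers among the 37 genes thus ran from 0.0412 to 5.21 RPKM, whereas Fcgr3 and Lyz2 of the same 37 genes were above 10 RPKM. Of the macrophage markers outside the 37 genes, C1qb had a mean level of 8.29 RPKM, C1qa of 5.10 and C1qc of 2.40. A sum of counts over the 37 genes rests largely on Aif1, which held from 54.0% to 57.2% of it in a library, without regard to length.

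**Figure D1:**
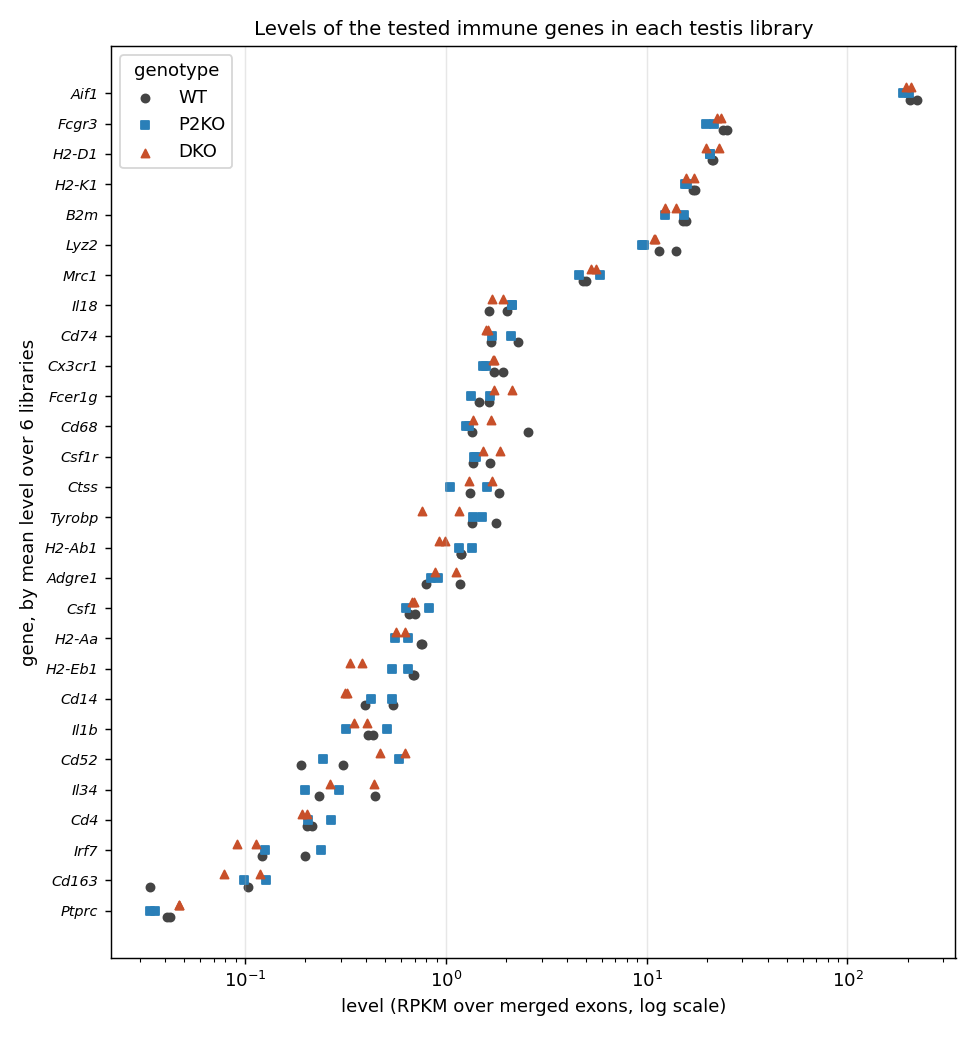
Level of each of the 28 tested genes (vertical axis, ordered by mean level) in RPKM on a log scale (horizontal axis), with 1 mark per library and genotypes by colour and shape. Levels differ far more between genes than between genotypes.

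The 9 genes not tested had few counts or none. S100a8 and S100a9, which encode the calprotectin of neutrophils, had 0 counts in every library. A count of 0 leaves room for up to 3 counts, or from 0.110 to 0.137 CPM, by counting error alone. The chemokine genes Ccl2 and Cxcl10 had from 0 to 3 counts, and the cytokine gene Tnf from 0 to 2. Cd3e and Cd3g, which encode chains of the T cell receptor complex, had from 1 to 9 and from 0 to 3 counts. Isg15, an interferon-induced gene, had from 2 to 5 counts. Transcripts of Isg15 are 95.2% identical over 482 bases to those of AC151275.1, a gene with 0 counts in every library. Itgam, which encodes the integrin chain CD11b, had from 0 to 8 counts. Its exons share 3450 bases on the same strand with Gm49368, a gene with 0 counts in every library, and transcripts of the pair are 99.9% identical over 3454 bases, so that reads on both could not be assigned to either.

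The 3 comparisons were made with edgeR, by its quasi-likelihood test, with p-values adjusted over all 20744 tested genes by the Benjamini-Hochberg method, and a gene with an adjusted p under 0.05 is said to be called. None of the 28 genes was called in any comparison by edgeR. In P2KO against WT the count was 0 of 28, where 0.337% of all tested genes were called (70 of 20744). At an unadjusted p under 0.05 there were 0 higher and 3 lower, while 8.57% of all tested genes passed that limit. In 1 gene both P2KO libraries were above both WT libraries and in 10 both were below, and 37.5% of all tested genes were separated in this way in either direction.

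For DKO against WT, 0 of 28 were called by edgeR, against 3.22% of all tested genes (668 of 20744). Unadjusted, 1 gene was higher and 2 were lower at p under 0.05, with 14.1% of all tested genes past it. The libraries were separated upward in 4 genes and downward in 12, against 43.2% of all tested genes.

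For DKO against P2KO, 0 of 28 were again called by edgeR, against 1.21% of all tested genes (250 of 20744). At an unadjusted p under 0.05, 1 gene was higher and 0 were lower, with 11.8% of all tested genes past it. Libraries were separated upward in 7 genes and downward in 8, against 42.8% of all tested genes. DESeq2 on all 6 libraries called 0 of the genes in each of the 3 comparisons, in which it gave an adjusted p to 28, 14 and 14 of them, and at an unadjusted p under 0.05 it gave 2, 0 and 0.

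Over the 28 genes, the median of the log2 fold changes was -0.11 in P2KO against WT, -0.08 in DKO against WT and 0.04 in DKO against P2KO, while over all tested genes it was 0.00, -0.00 and -0.00. Of the fitted values, 19 were lower and 9 higher in P2KO against WT, 19 lower and 9 higher in DKO against WT, and 13 lower and 15 higher in DKO against P2KO. Without WT 2, the median was 0.02 in P2KO against WT, with 13 genes lower, and -0.03 in DKO against WT, with 15 lower, so the lower values were not more numerous in the first comparison without that library. Without DKO 1 the median in DKO against P2KO was -0.03. The first 2 comparisons use the same WT libraries, and WT 2 had the higher normalized count of the WT pair in 20 of the 28 genes. Summed over the 37 genes, normalized counts were 13847 and 14861 in WT, 13369 and 13149 in P2KO, and 13641 and 13812 in DKO. Without Aif1 the sums were 6188 and 6511, 5725 and 6017, and 6280 and 6007. The P2KO sums with Aif1 lay below those of all other libraries, and those of DKO lay below both WT libraries. Aif1, which makes up most of the sums, and all 5 markers of elongating spermatids were lower in both P2KO libraries than in both WT libraries, and the part of spermatids in the sums was not tested. For any cell type in RNA of a whole testis, fewer cells and less RNA per cell cannot be told apart. The p-values measure the spread between these mice only.

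**Figure D2:**
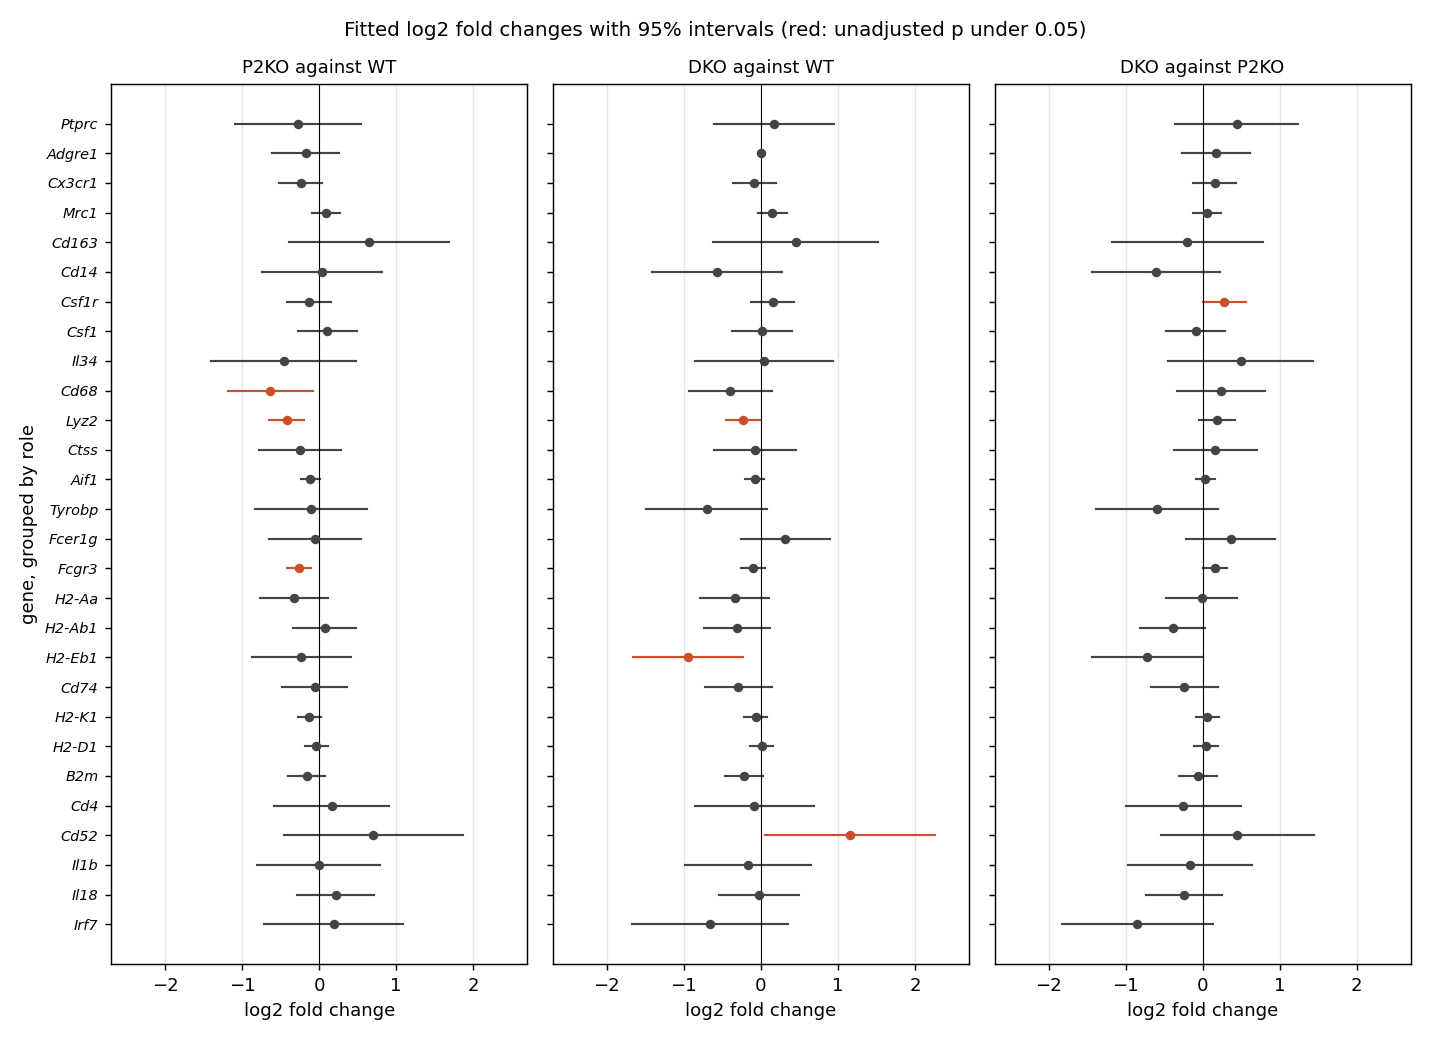
Fitted log2 fold change (horizontal axis) with its 95% interval for the 28 tested genes (vertical axis, by role) in the 3 comparisons, red where the unadjusted p was under 0.05. Adgre1 in DKO against WT, fitted at 0, has no interval, and most intervals of the rest cross 0.

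Among surface genes of leukocytes and macrophages, Ptprc, which encodes the pan-leukocyte protein CD45, had normalized counts (counts scaled to a common library size) of 19.2 and 18.5 in WT, 15.1 and 16.0 in P2KO, and 21.1 and 21.2 in DKO. On this scale the P2KO libraries were lowest and the DKO libraries highest, with no overlap among the genotypes. Raw counts of Ptprc were 17 and 20 in WT, 17 and 15 in P2KO, and 22 and 20 in DKO, with ties between genotypes. Its log2 fold change was -0.28 in P2KO against WT, 0.17 in DKO against WT and 0.45 in DKO against P2KO (edgeR adjusted p = 0.907, 0.911 and 0.717), and the value in DKO against WT turned its sign with the length correction, alone or with the replicate block. Adgre1, which encodes F4/80, had 63.1 and 93.5 in WT, 72.7 and 67.1 in P2KO, and 69.9 and 89.1 in DKO. The WT pair spanned all other libraries, and the fitted log2 fold changes were -0.18, -0.00 and 0.18. The first turned its sign without WT 2 and the last without DKO 2.

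Mrc1 encodes the mannose receptor CD206, a mark of the interstitial macrophages. Its normalized counts were 758 and 779 in WT, 722 and 919 in P2KO, and 826 and 880 in DKO. Both DKO libraries were above both WT libraries and the P2KO pair spanned them all, with log2 fold changes of 0.09, 0.15 and 0.06 (edgeR adjusted p = 0.859, 0.505 and 0.867), of which the first turned its sign without P2KO 2 and the last without P2KO 1. Cd163, which encodes the haemoglobin scavenger receptor, had 4.51 and 13.9 in WT, 13.3 and 17.0 in P2KO, and 10.5 and 15.9 in DKO. WT 1 was the lowest library and the other 5 overlapped. Cx3cr1, which encodes the fractalkine receptor, had 192 and 214 in WT, 169 and 176 in P2KO, and 191 and 193 in DKO. Both P2KO libraries were below the other 4, at a log2 fold change of -0.24 against WT (edgeR adjusted p = 0.663). Cd14, a receptor for lipopolysaccharide, had 16.9 and 23.1 in WT, 23.1 and 18.1 in P2KO, and 13.4 and 13.8 in DKO. Both DKO libraries were the lowest of the 6, at log2 fold changes of -0.57 against WT and -0.61 against P2KO (edgeR adjusted p = 0.602 and 0.601).

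Csf1r encodes the receptor on which macrophages depend, and Csf1 and Il34 its ligands. Csf1r had normalized counts of 194 and 236 in WT, 200 and 195 in P2KO, and 217 and 264 in DKO. Both DKO libraries were above both P2KO libraries, and the WT pair overlapped both other genotypes. The log2 fold change was 0.28 in DKO against P2KO (95% interval 0.00 to 0.56, unadjusted p under 0.05, edgeR adjusted p = 0.412), and -0.13 and 0.15 in P2KO and DKO against WT. In DKO against P2KO it was 0.14 without DKO 2 and 0.42 without DKO 1, and in P2KO against WT it turned its sign without WT 2. Exons of Csf1r share 873 bases with Hmgxb3 on the opposite strand, a gene with from 1123 to 1427 counts. The strand to which the deposited counts refer is not stated, so reads of the pair cannot be told apart here.

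Neither ligand gene was called. Csf1 had normalized counts of 91.2 and 85.2 in WT, 106 and 82.0 in P2KO, and 90.0 and 88.0 in DKO. The P2KO pair spanned the other 4 libraries, and the fitted log2 fold changes were 0.11, 0.02 and -0.09, each of which turned its sign without 1 of the libraries. Il34 had 11.3 and 21.3 in WT, 14.2 and 9.58 in P2KO, and 21.1 and 12.7 in DKO. All 3 genotypes overlapped in Il34, and its log2 fold changes were -0.46, 0.04 and 0.50 (edgeR adjusted p = 0.852, 0.986 and 0.738), the last being the highest of the 28 genes in DKO against P2KO. Without WT 2 the value of Il34 in P2KO against WT turned its sign.

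The lysosomal and intracellular genes of macrophages were fitted below WT in both knockout genotypes, all 4 of them in each comparison, and none was called. This did not hold without WT 2, where Ctss in P2KO and both Cd68 and Ctss in DKO were fitted above WT, and Ctss was also above WT without P2KO 2 in P2KO and without DKO 2 in DKO. Lyz2, which encodes the lysozyme of myeloid cells, had normalized counts of 374 and 453 in WT, 307 and 313 in P2KO, and 352 and 355 in DKO. Its 3 genotypes did not overlap, with WT highest and P2KO lowest. The log2 fold change was -0.42 in P2KO against WT (95% interval -0.65 to -0.19, unadjusted p under 0.05, edgeR adjusted p = 0.109), the smallest adjusted p of the 28 genes in that comparison. In DKO against WT it was -0.23 (unadjusted p under 0.05, edgeR adjusted p = 0.330). Transcripts of Lyz2 are 95.8% identical over 1264 bases to those of Lyz1, which had from 0 to 3 counts.

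Cd68 encodes a glycoprotein of the macrophage lysosome. Its normalized counts were 41.7 and 79.6 in WT, 39.0 and 40.5 in P2KO, and 42.1 and 51.9 in DKO. WT 2 stood above the other 5 libraries, and WT 1 lay near the P2KO pair. The log2 fold change in P2KO against WT was -0.64 (95% interval -1.19 to -0.08, unadjusted p under 0.05, edgeR adjusted p = 0.493). Without WT 2 it was -0.07 for Cd68 and -0.27 for Lyz2, while without WT 1 both genes were called, at -1.01 (adjusted p = 0.0412) and -0.55 (adjusted p = 0.00676). For Lyz2 in DKO against WT the value without WT 2 was -0.08 and without WT 1 was -0.36 (adjusted p = 0.0917). Ctss, which encodes the protease cathepsin S, ranged from 35.1 to 61.1 normalized counts, and Aif1 from 7132 to 8350.

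Fcgr3 encodes an Fc receptor for IgG, and Fcer1g and Tyrobp encode adaptors with ITAM motifs that pass on the signals of such receptors. Fcgr3 had normalized counts of 1027 and 1072 in WT, 837 and 920 in P2KO, and 1001 and 958 in DKO. The genotypes did not overlap, with the order WT, DKO and P2KO from the highest. Its log2 fold change in P2KO against WT was -0.26 (95% interval -0.42 to -0.10, unadjusted p under 0.05, edgeR adjusted p = 0.224), and in DKO against WT it was -0.10 (adjusted p = 0.633). Fcer1g ranged from 28.7 to 46.0 and Tyrobp from 12.5 to 29.3 normalized counts. Both adaptors were separated between DKO and WT, with Fcer1g above and Tyrobp below, and neither was called.

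MHC class II molecules present peptides to helper T cells, and their genes gave the lowest fitted value of the 28 genes. H2-Eb1, which encodes a beta chain, had normalized counts of 32.7 and 33.3 in WT, 25.7 and 30.9 in P2KO, and 18.2 and 15.9 in DKO. The genotypes did not overlap, with the DKO libraries lowest. The log2 fold change in DKO against WT was -0.94 (95% interval -1.65 to -0.23, unadjusted p under 0.05, edgeR adjusted p = 0.161), and in DKO against P2KO it was -0.71 (edgeR adjusted p = 0.430). H2-Eb1 was not called under any alternative that gave it an adjusted p, which some did not, among them the filter at a mean of 50 counts.

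The other class II genes of the 37 were not called either. Like H2-Eb1, each had both DKO libraries below both WT libraries. Such a downward separation was found in 4489 of all 20744 tested genes, and a separation in either direction in 43.2%. H2-Aa, which encodes an alpha chain, had normalized counts of 71.0 and 70.4 in WT, 52.3 and 60.7 in P2KO, and 58.4 and 53.0 in DKO. Its P2KO and DKO libraries overlapped below WT, with log2 fold changes of -0.33 and -0.34 (edgeR adjusted p = 0.732 and 0.541). H2-Ab1, which encodes its partner beta chain, had 75.5 and 75.0 in WT, 73.6 and 85.2 in P2KO, and 58.4 and 62.6 in DKO. The DKO libraries were below all others, at a log2 fold change of -0.32 against WT (edgeR adjusted p = 0.557). Cd74, which encodes the invariant chain that escorts class II molecules, had 94.6 and 69.4 in WT, 70.1 and 87.3 in P2KO, and 67.1 and 65.7 in DKO. Here the lower WT library came close to the DKO pair, and the log2 fold change was -0.29 (edgeR adjusted p = 0.605). Summed over the 4 genes, normalized counts were 274 and 248 in WT, 222 and 264 in P2KO, and 202 and 197 in DKO. The DKO sums were the lowest of the 6. Of the class II genes outside the 37 that were tested, which help to load peptides, none was separated between DKO and WT: H2-DMa had 440 and 476 in WT and 484 and 442 in DKO, H2-DMb1 had 25.9 and 27.8 in WT and 12.5 and 28.6 in DKO, and H2-DMb2 had 13.5 and 20.4 in WT and 10.5 and 15.9 in DKO. Their log2 fold changes were 0.01, -0.41 and -0.39 (edgeR adjusted p = 0.976, 0.712 and 0.787). Exons of H2-DMa share 360 bases with Brd2 on the opposite strand. The strand of the deposited counts is not stated, so reads of that pair cannot be told apart here.

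**Figure D3:**
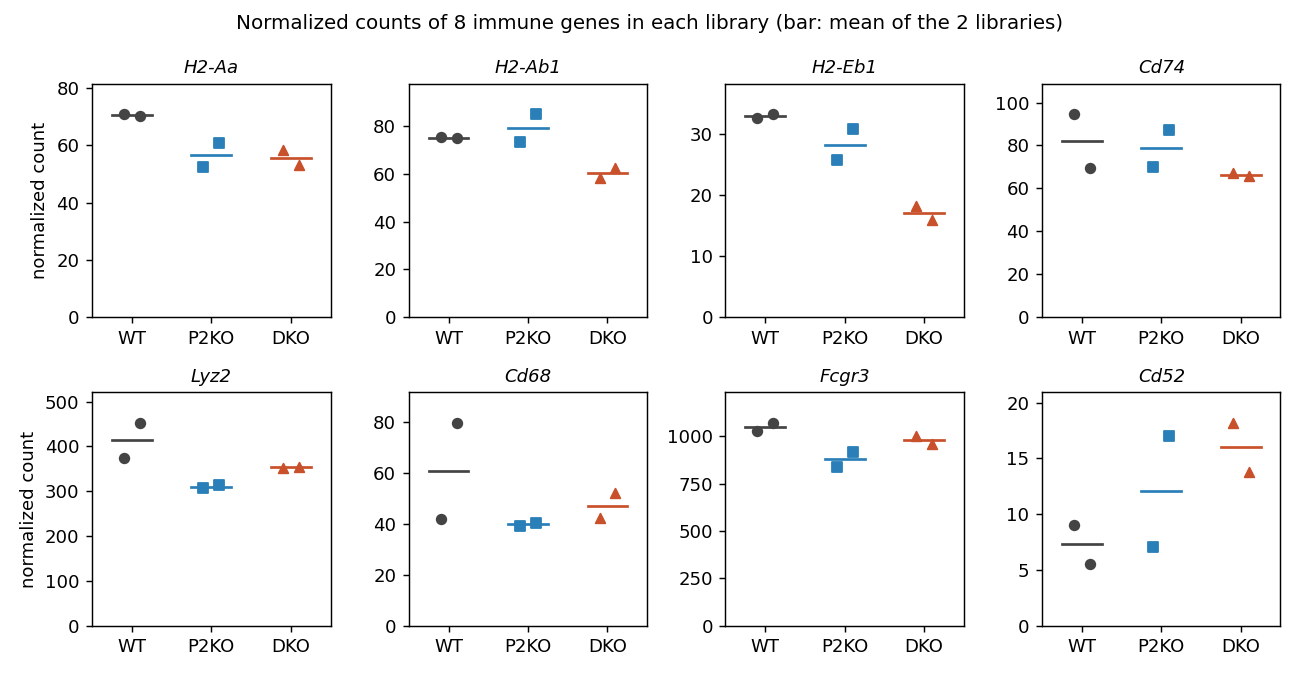
Normalized count (vertical axis, from 0) in each library by genotype (horizontal axis) for the 4 MHC class II genes and for Lyz2, Cd68, Fcgr3 and Cd52, with bars at the means. Both DKO libraries lie below both WT libraries in the 4 class II genes, and none of the 8 genes was called in any comparison.

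Promoter sequences from RefSeq (build GRCm38.p6, 250 bases before to 50 after the start of each gene) were matched to 27 of the 37 genes by symbol, in 30 windows. They were searched on both strands for the CCAAT box (CCAAT), part of the known class II promoter, for an interferon-stimulated element core (GAAA, any 2 bases, GAAA) and for a core of the myeloid factor PU.1 (GAGGAAGT). CCAAT was found in 12 of the 30 windows (40.0%), of 11 genes, and in 37.4% of all 32851 windows. The interferon element was found for Aif1, B2m, Ctss, Cxcl10 and Isg15, in 5 windows (16.7%) against 3.44% of all windows. GAGGAAGT was found for Ctss and S100a8, in 2 windows (6.67%) against 3.20%. The windows of H2-Aa (chr17:34287774-34288073, minus strand) and H2-Eb1 (chr17:34305617-34305916, plus strand) are printed as those of class II genes with an entry whose DKO libraries were below both WT libraries, though neither was called and the libraries of H2-Aa overlapped between DKO and P2KO (log2 fold change -0.01). The choice was made after their values were seen. Capitals mark CCAAT or its reverse complement ATTGG, found once for H2-Aa and at 2 places for H2-Eb1, and neither window holds the other motifs. H2-Ab1 has no entry, and no window is printed for Cd74, whose DKO libraries were also below both WT libraries.
H2-Aa: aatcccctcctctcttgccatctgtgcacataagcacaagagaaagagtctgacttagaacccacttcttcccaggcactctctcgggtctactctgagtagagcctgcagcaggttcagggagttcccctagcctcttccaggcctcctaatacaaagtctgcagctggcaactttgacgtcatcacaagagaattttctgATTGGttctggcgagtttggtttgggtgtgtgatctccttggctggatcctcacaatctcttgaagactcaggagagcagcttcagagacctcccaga
H2-Eb1: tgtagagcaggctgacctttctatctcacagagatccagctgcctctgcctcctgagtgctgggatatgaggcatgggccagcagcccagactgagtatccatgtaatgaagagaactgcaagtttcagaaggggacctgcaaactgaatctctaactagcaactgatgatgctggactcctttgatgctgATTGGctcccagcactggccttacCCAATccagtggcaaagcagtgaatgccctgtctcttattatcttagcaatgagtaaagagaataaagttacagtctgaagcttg

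MHC class I molecules are made by nearly all nucleated cells and present peptides to cytotoxic T cells. H2-K1 encodes a heavy chain and had normalized counts of 1226 and 1250 in WT, 1150 and 1118 in P2KO, and 1236 and 1132 in DKO. Both P2KO libraries lay below both WT libraries and the DKO pair overlapped both. H2-D1, which encodes another heavy chain, had 1339 and 1352 in WT, 1315 and 1312 in P2KO, and 1457 and 1248 in DKO. The DKO pair spanned the other 4 libraries. B2m, which encodes the light chain, had 332 and 318 in WT, 261 and 323 in P2KO, and 296 and 260 in DKO. Both DKO libraries were below both WT libraries, at a log2 fold change of -0.22 (edgeR adjusted p = 0.426), and the fitted values of the heavy chain genes ran from -0.06 to 0.01 in that comparison. Of the 37 genes, 8 lie on chromosome 17, where the H2 genes are. The FVB/NJ strain carries another MHC haplotype than the C57BL/6J reference, and its effect on counts of H2 genes was not tested. Transcripts of H2-K1 and H2-D1 are 95.2% identical over 251 bases.

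Of the lymphocyte genes, Cd4, the coreceptor of helper T cells that is also made by some macrophages, ranged from 19.1 to 26.6 normalized counts. Cd52, which encodes a small surface glycoprotein of lymphocytes, had 9.01 and 5.55 in WT, 7.10 and 17.0 in P2KO, and 18.2 and 13.8 in DKO. Both DKO libraries were above both WT libraries, and the P2KO pair overlapped each. The log2 fold change in DKO against WT was 1.16 (95% interval 0.06 to 2.26, unadjusted p under 0.05, edgeR adjusted p = 0.319), the highest of the 28 genes. Exons of Cd52 share 172 bases on the opposite strand with Crybg2, which had 138 and 139 counts in WT, 178 and 132 in P2KO, and 21 and 26 in DKO and fell in DKO against WT (log2 fold change -2.57, edgeR adjusted p = 3.00e-10). Cd52 and Crybg2 lie on chromosome 4, as do Padi2 and Padi4, so an effect of the genotype and of the chromosome around the targeted genes cannot be told apart.

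Of the cytokine genes, Il1b, which encodes interleukin 1 beta, ranged from 14.9 to 23.9 normalized counts and Il18, which encodes interleukin 18, from 41.7 to 54.3. Both P2KO libraries had more Il18 than both WT libraries, at a log2 fold change of 0.22 (edgeR adjusted p = 0.870). Irf7, a transcription factor of the interferon response, ranged from 8.48 to 22.2 and was lowest in the DKO libraries, with a log2 fold change of -0.66 against WT (edgeR adjusted p = 0.620).

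Further immune genes were read from lists of 186 genes, of which 120 were tested. In P2KO against WT 0 were called by edgeR and 2 were higher and 10 lower at an unadjusted p under 0.05; in DKO against P2KO 0 were called and 8 were higher and 5 lower. In DKO against WT, 2 rose (Nlrc5 and Tnfrsf1b) and 2 fell (Apoe and the targeted Padi4), and 4 were higher and 8 lower at an unadjusted p under 0.05. The called share there was 3.33% of the list genes, and 2.52% without the targeted Padi4 (3 of 119), beside 3.22% of all tested genes. At an unadjusted p under 0.05 there were 12, 12 and 13 of the 120 genes in P2KO against WT, DKO against WT and DKO against P2KO, beside 8.57%, 14.1% and 11.8% of all tested genes. Over the 120 genes, the median of the log2 fold changes was -0.06, -0.05 and 0.01 in the 3 comparisons.

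Apoe encodes apolipoprotein E, which is made by macrophages and by other cells, and had normalized counts of 3565 and 4089 in WT, 3229 and 3149 in P2KO, and 2895 and 2587 in DKO. The genotypes did not overlap, and the gene fell in DKO against WT (log2 fold change -0.48, edgeR adjusted p = 1.06e-05). It was called in that comparison under every alternative. In P2KO against WT the value was -0.26 (edgeR adjusted p = 0.0870).

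Nlrc5 encodes a transactivator of MHC class I genes. It had normalized counts of 223 and 241 in WT, 267 and 219 in P2KO, and 319 and 349 in DKO. Both DKO libraries were the highest of the 6, and the gene rose against WT (log2 fold change 0.52, edgeR adjusted p = 0.00990). The call was lost without WT 1 (adjusted p = 0.0505), without DKO 2 (0.196), with DESeq2 on all 6 libraries (0.0749) or on DKO and WT alone (0.145), and with the length correction and replicate block together (0.0645). In those fits the log2 fold change of Nlrc5 ran from 0.45 to 0.53. The class I genes H2-K1, H2-D1 and B2m were not called in DKO against WT.

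Tnfrsf1b encodes the second receptor for tumour necrosis factor, and had 28.2 and 38.0 in WT, 28.4 and 54.3 in P2KO, and 74.7 and 68.9 in DKO. The DKO libraries were again the highest, and the gene rose against WT (log2 fold change 1.10, edgeR adjusted p = 0.0144). Its call was lost without WT 1 (adjusted p = 0.0661), without DKO 1 (0.157), without DKO 2 (0.0907) and with DESeq2 on the genotypes compared (0.222), and DESeq2 on all 6 libraries gave it no adjusted p. The log2 fold change of Tnfrsf1b ran from 0.91 to 1.16 in those fits. The gene lies on chromosome 4 with the targeted genes.

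By list, 38 of 43 macrophage and myeloid genes were tested, and Apoe (62.0 RPKM), Gas6 (21.6) and Lgmn (15.2) had the highest mean levels. C1qa, C1qb and C1qc of this list, on chromosome 4 with the targeted genes, were not called by edgeR in any comparison. Their log2 fold changes were -0.44 (unadjusted p under 0.05), -0.27 and -0.20 in P2KO against WT. In DKO against WT they were -0.32, -0.04 and 0.13. Of 28 genes of antigen presentation 24 were tested, led by Calr (183 RPKM), Pdia3 (112) and Canx (42.6), and Ciita, the transactivator of class II genes, had too few counts at 4 and 1 in WT, 1 and 5 in P2KO, and 0 and 2 in DKO. Of 26 lymphocyte genes 11 were tested, led by Trbc2 (10.1 RPKM), Cd3d (4.77) and Cd2 (0.996), with Gzma and Ncr1 at 0. Only 6 of 19 neutrophil and mast cell genes were tested, led by Hdc (4.86 RPKM), Cpa3 (0.265) and Mpo (0.169), and Ly6g, Ngp, Retnlg and Ms4a2 were at 0. For 34 interferon genes, 22 were tested, led by Ifngr2 (6.37 RPKM), Ifi27 (5.80) and Bst2 (3.89). For 36 cytokines, chemokines and receptors, 19 were tested, led by Mif (30.8 RPKM), Tnfrsf1a (3.45) and Csf2ra (2.72).

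Lists of markers of other cells were read beside the immune genes. Among 8 Leydig cell markers, 4 rose in DKO against WT (Cyp17a1, Cyp11a1, Hsd3b6 and Star) and 1 fell (Hsd3b1), where 3.22% of all tested genes were called, with summed normalized counts of 18672 and 18365 in WT, 20878 and 18732 in P2KO, and 24102 and 19946 in DKO; Cyp17a1 was the most abundant and none was at 0. For the 5 markers of elongating spermatids, led by Prm2, Prm1 and Tnp1 fell in DKO against WT and Tnp2 fell in P2KO against WT (0.337% of all tested genes called), and the list sums were 341029 and 352199 in WT, 287077 and 319989 in P2KO, and 313484 and 311900 in DKO. Of 6 erythroid markers, led by Alas2 and with Hba-a2 at 0, 3 were tested and none of those was called. Sums over the list were 798 and 1060 in WT, 538 and 912 in P2KO, and 784 and 776 in DKO. The erythroid sum and the globin genes Hba-a1 and Hbb-bs were highest in WT 2, the library that also stood highest in Cd68 and Lyz2, whereas Alas2 was highest in DKO 2. The part of these cells in the values of the immune genes was not tested.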

How the data were processed

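After trimming (Trim Galore) and alignment (STAR, GRCm38), the authors deposited a read count for every gene; versions, and which of STAR's columns by strand was kept, are not stated. Total counts ran from 21939393 to 27306679 per library. Here the deposited count of each gene went into edgeR 4.0.16 (R 4.3.3, limma 3.58.1). Genes passed filterByExpr (minimum count 10), libraries were scaled by TMM, and 1 quasi-likelihood fit of all 6 libraries with genotype as its term left 3 residual degrees of freedom. The common biological coefficient of variation was 0.0508. Intervals use a standard error taken as the size of the log2 fold change over the square root of the test's F value. The tests and intervals add prior degrees of freedom, estimated across genes (median 31.2), to the residual ones. Floors cover counting error only. With 2 libraries a group, an exact permutation test cannot pass 0.05. BLAST 2.17.0 found near copies (identity of at least 95% over at least 150 bases and at least 50% of the shorter transcript). Exons are those of GENCODE M21 (Ensembl 96).

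All 37 members are named. Values per library are given for members with an unadjusted p under 0.05, defining macrophage markers, MHC genes and CSF1R ligands, and ranges for the others. Of the other lists, called genes and the most abundant are named (3 per immune list). Hmgxb3, Crybg2, Lyz1, Gm49368, AC151275.1, Ciita, Rfxap, the C1q genes, the H2-DM genes, Hba-a1 and Hbb-bs were named after their values were seen. Brd2 was named as a gene that shares exon bases with H2-DMa. The members and lists were chosen with earlier results of these data known.

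Alternatives tried were scaling by RLE or upper quartile, no filter, a filter at a mean of 50 counts, a prior count of 2, and a model with a block for the replicate number. A length correction (lowess offsets, span 0.3) was run alone and with that block. DESeq2 1.42.0 was run with all libraries and with only the pair of genotypes at hand, and edgeR with only that pair. Chromosome 4, and each library in turn, was left out. RPKM by the longest protein-coding transcript was an alternative chosen after seeing the data, and the motifs were likewise chosen then.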

Additional observations from a re-analysis of the deposited data

How the results depend on the processing

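No member was called in DKO against WT or DKO against P2KO under any alternative, and in P2KO against WT the count ran from 0 to 2 with a library left out (Cd68 and Lyz2, without WT 1, where 311 of all genes were called). Some alternatives covered fewer members: DESeq2 on the genotypes compared gave an adjusted p to 25 in DKO against WT and 5 in DKO against P2KO. The filter at a mean of 50 counts left 14. With the replicate block 0 members were called in each comparison, and 45, 555 and 189 of all genes. Over all tested genes, deviations of the libraries numbered 1 from their genotype mean correlated between genotypes at -0.057, 0.057 and -0.050. Whether libraries of the same number share a litter, day or batch is not stated and was not tested. Pathway list genes called in P2KO against WT were 0, but 2 with no filter (Apoe and Padi4) and from 0 to 2 with a library left out. In DKO against WT they were 4, and 4 with the replicate block, but 2 with a mean of at least 50 counts, 1 with DESeq2 on all 6 libraries, 2 with DESeq2 on the genotypes compared, 2 without chromosome 4, 3 with the length correction and block together, 5 with upper-quartile scaling (with Rfxap), 6 with no filter (with Bst2 and Rfxap), and from 2 to 5 with a library left out. In DKO against P2KO they were 0, but 2 with no filter (Nlrc5 and Rfxap), 3 with edgeR on the genotypes compared, and from 0 to 4 with a library left out. The filter tests fewer genes and the chromosome 4 setting leaves out Padi4 and Tnfrsf1b by construction; for the others the cause was not tested. In fits of all 6 libraries 777 of 795 fitted values of members kept their sign, in fits of the genotypes compared alone 166 of 167, and with a library left out 451 of 504. Apoe, Nlrc5, Padi4 and Tnfrsf1b in DKO against WT kept their direction wherever they were fitted, and other called genes were not followed through the alternatives. By the longest protein-coding transcript, an alternative chosen after seeing the data, the levels of 17 of the 28 members moved by more than their spread, among them H2-Aa (2.20 RPKM in place of 0.654), H2-Ab1 (2.41 in place of 1.14) and Cd52 (0.934 in place of 0.404). A lone library left in a genotype is assumed to vary like the others. Depth limits many members: 14 of the 28 did reach a mean of 50 counts and the rest did not.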

Other observations

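Markers of the remaining cells of the testis were read as well. Of 9 Sertoli cell markers, led by Clu, 1 was called: Aard fell in DKO against P2KO (log2 fold change -0.36, edgeR adjusted p = 0.00391). In that comparison 1.21% of all tested genes were called. Of 5 markers of round spermatids, led by Tssk1, 1 was called: Spaca1 fell in DKO against P2KO (log2 fold change -0.25, edgeR adjusted p = 0.0402), again beside 1.21% of all tested genes. Of the 8 Leydig cell markers, 1 was called in DKO against P2KO: Hsd3b6 rose (log2 fold change 0.63, edgeR adjusted p = 2.93e-07), beside the same 1.21%. By edgeR, 0 of the tested markers were called among spermatocytes (led by Piwil1), spermatogonia (Uchl1), peritubular myoid cells (Acta2), endothelial cells (Vwf), adipose tissue (Adipoq) and epididymal epithelium (Rnase10). Only 5 of 6 endothelial, 3 of 7 adipose and 1 of 7 epididymal markers were tested, and Lcn5 of the last list was at 0.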
